A study of Mus musculus with 6 samples.

Results

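The 10 genes described here are the multi-domain members of the BCL-2 family in mouse regulatory T cells (Tregs): the pro-survival genes Bcl2, Bcl2l1, Bcl2l2, Mcl1, Bcl2a1a, Bcl2a1b and Bcl2a1d, and the pore-forming genes Bax, Bak1 and Bok. They were taken by symbol from the 55573 gene identifiers counted in each library, and all 10 were found. Of the 10, 8 passed the count filter (edgeR's filterByExpr), as did 13347 genes in all. Bcl2a1a and Bok did not pass and are given as counts.

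BCL-2 family proteins decide at the outer mitochondrial membrane whether a cell undergoes apoptosis. BAX and BAK, once active, assemble into pores that release cytochrome c, and the pro-survival proteins hold them and the activating BH3-only proteins in check. In mouse Tregs MCL-1 is known to be required for survival, interleukin-2 is known to maintain it, and the BH3-only protein BIM opposes it.

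RNA was sequenced from 3 libraries of Nfkb2-/- Tregs and 3 libraries of wild-type Tregs. Nfkb2 encodes p100, an NF-kB protein that is cut to give p52. Both genotypes were sorted from the spleen of chimeric mice, which the labels call bi-parental and which received bone marrow from donors, and the cells rested in medium before lysis without other treatment. The labels give no strain, age or sex of donors or hosts, and do not describe the allele further or say whether same-numbered libraries share a host. The labels call the libraries biological repeats, and p-values measure the spread between these libraries.

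Library totals ran from 12005273 to 14359439 counts in Nfkb2-/- and from 12499343 to 17278521 in wild type. Nfkb2 was at 269, 324 and 271 CPM (counts scaled to a common library size with TMM, the trimmed mean of M-values) in Nfkb2-/- libraries, against 558, 545 and 556 CPM in wild type (log2 fold change -0.94, SE 0.134, edgeR adjusted p = 0.0203), lower but not absent. Wild-type replicate 1 was the least like the others: its log2 CPM correlated with theirs at r from 0.941 to 0.955 across genes, which are not independent replicates, and all other pairs at 0.968 to 0.991. Xist was at 592 to 883 CPM in Nfkb2-/- and at 1.94 to 16.5 CPM in wild type, and 4 Y-linked genes summed to 40.0 to 275 CPM in Nfkb2-/- and 465 to 498 CPM in wild type. Donor sex and genotype therefore cannot be told apart in any comparison below. Each Nfkb2-/- library held Xist together with Y-linked transcripts, which summed to 40.0, 138 and 275 CPM. Whether these libraries mix male and female cells, or cells of more than 1 donor, was not tested. The 7 Treg markers were all detected. Their summed level was 4036 to 4478 CPM in Nfkb2-/- libraries, against 3236 to 4907 CPM in wild type, and Foxp3 averaged 525 ± 67.4 CPM in Nfkb2-/- libraries, against 505 ± 109 CPM in wild type (SD, n = 3 for each genotype).

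As counted, Mcl1 was the most abundant of these transcripts per length in every library, and no member passed the test between genotypes. Reads shared by the near-identical Bcl2a1 genes may be uncounted, so the rank of Mcl1 against Bcl2a1d is uncertain. The edgeR quasi-likelihood test with Benjamini-Hochberg adjustment called 0 of the 8 tested members, where it called 1.42% of all genes tested. At an unadjusted p under 0.05, 1 member was higher (Bcl2l1) and 1 was lower (Mcl1), where 7.25% of all genes were higher and 6.35% lower, 13.6% in all. DESeq2 called the same 2 genes in the same directions, where it called 3.21% of all genes higher and 1.89% lower, 5.1% in all. Limma-voom called 0 members, against 1.47% of all genes, and edgeR with the replicate number as a block called 0, against 2.17%. Levels of these 2 members did not overlap between genotypes, as for 10.7% of all genes on the higher side and 9.9% on the lower side, 20.6% together. The median log2 fold change of the 8 members was 0.26, against -0.03 over all genes tested. In bulk libraries fewer cells of a type and less RNA per cell cannot be told apart.

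**Figure D1:**
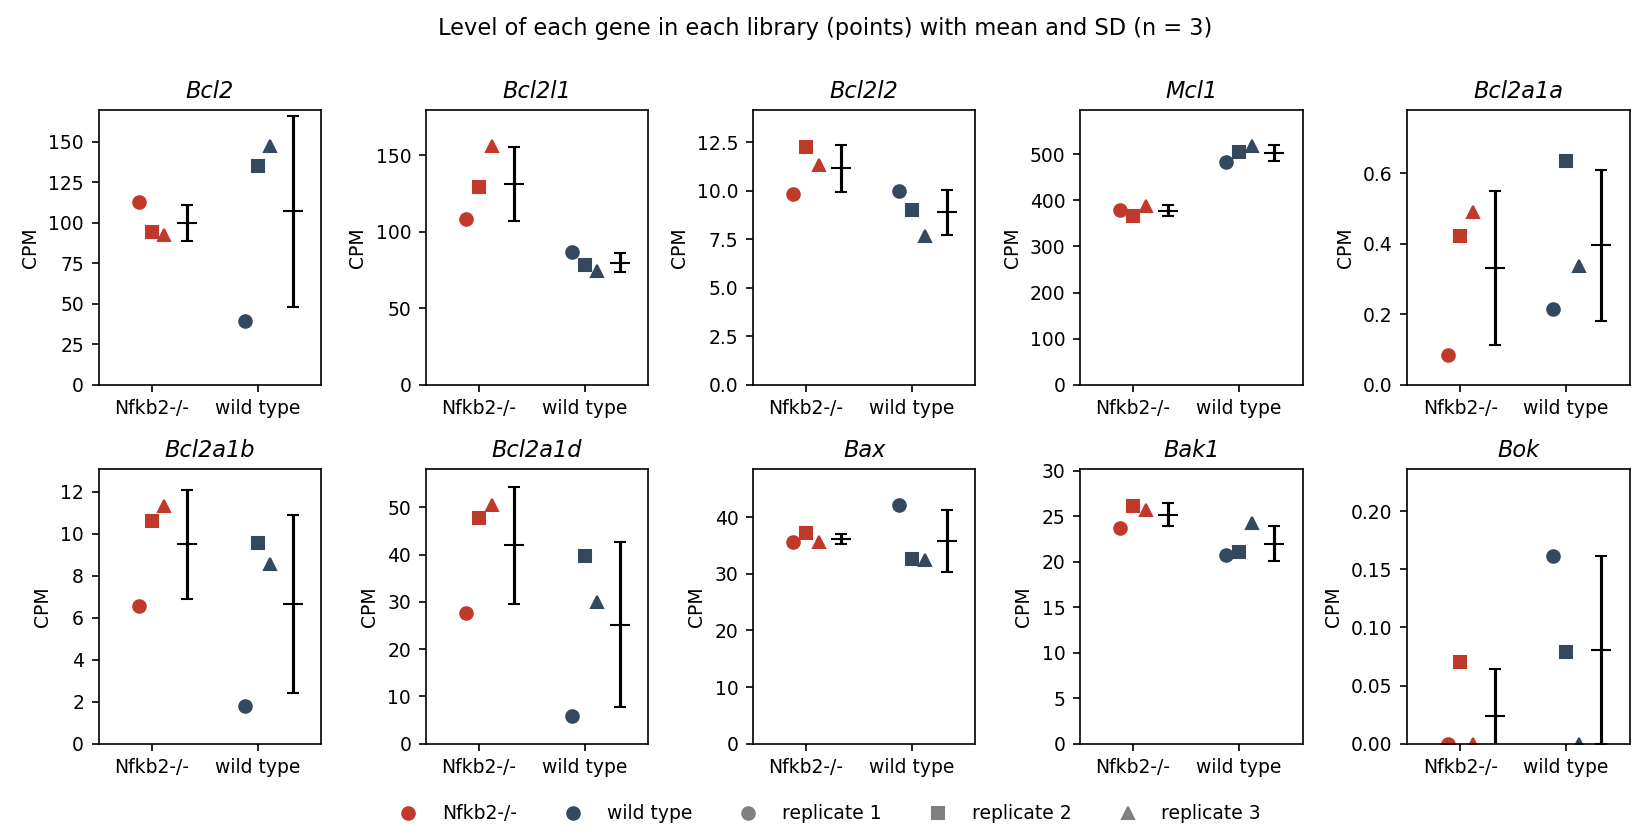
CPM of each of the 10 genes (y axis, from 0, own scale per panel) in the Nfkb2-/- libraries (red, left) and the wild-type libraries (dark blue, right); marker shapes give the replicate number, and bars give the mean and SD of 3 libraries (clipped at 0 for Bok). Bcl2l1 lies higher and Mcl1 lower in all 3 Nfkb2-/- libraries, and wild-type replicate 1 lies far below the rest for Bcl2, Bcl2a1b and Bcl2a1d.

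Mcl1 encodes MCL-1, a short-lived pro-survival protein that binds BAK and BIM. Mcl1 (ENSMUSG00000038612, chromosome 3, 95658788 to 95663176, GRCm38) was at 380.0, 366 and 388 CPM in Nfkb2-/- libraries, against 484, 505 and 518 CPM in wild type. The 3 Nfkb2-/- libraries were close to each other, and the groups did not overlap. Nfkb2-/- libraries averaged 378 ± 11.2 CPM from 14565 counts, against 502 ± 17.3 CPM from 21522 counts in wild type (SD, n = 3). The log2 fold change was -0.41 (SE 0.121, 95% interval -0.69 to -0.13, edgeR adjusted p = 0.173), a ratio of 0.753. DESeq2 gave an adjusted p of 0.00831. Without wild-type replicate 1 the edgeR adjusted p was 0.0284, where 4.44% of all genes were called lower. With each library left out in turn the fold change stayed between -0.44 and -0.39 on the log2 scale.

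Bcl2l1 encodes BCL-XL, a pro-survival protein that binds BAX, BAK and several BH3-only proteins, and is a known NF-kB target. Bcl2l1 (ENSMUSG00000007659, chromosome 2, 152780668 to 152831728) was at 108, 129 and 156 CPM in Nfkb2-/- libraries, against 86.4, 78.5 and 74.6 CPM in wild type. Every Nfkb2-/- library lay above every wild-type library, and the spread was wider among the Nfkb2-/- libraries. Nfkb2-/- libraries averaged 131 ± 23.9 CPM from 5060 counts, against 79.8 ± 6.02 CPM from 3482 counts in wild type (SD, n = 3). The log2 fold change was 0.72 (SE 0.155, 95% interval 0.36 to 1.08, edgeR adjusted p = 0.0795), a ratio of 1.64. DESeq2 gave an adjusted p of 0.00400. EdgeR without a count filter gave 0.0142, where 1.08% of all genes were called higher, and edgeR without wild-type replicate 1 gave 0.00467, where 4.6% were. Leaving out 1 library at a time gave log2 fold changes from 0.57 without Nfkb2-/- replicate 3 to 0.84 without Nfkb2-/- replicate 1.

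Because the knocked-out gene encodes an NF-kB protein, the RefSeq promoter windows of all 10 genes (12 windows, from 250 bases before to 50 after a start, GRCm38.p6) were searched on both strands for the NF-kB consensus. A match was found in 1 window, that of one of the 3 annotated starts of Bcl2l1, and 4.51% of all 32851 windows hold one. The stretch is shown with the match in capitals, at chr2:152830938-152830967 on the minus strand, where a further annotated Bcl2l1 transcript has an untranslated exon.
Bcl2l1: tgtttgtgGGGGGTCTCCagcatacgcctc
The match begins 242 bases before the start. The looser pattern of GGG, any 5 bases and CC, which contains the consensus, was in 8 of the 12 windows and in 50.8% of all windows. The STAT5 pattern TTCNNNGAA was in 0 of the 12 and in 8.30% of all. A match is a description of letters, and a window without one says nothing about binding elsewhere.

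Bcl2 encodes the founding pro-survival protein of the family, which is known to be high in resting lymphocytes. Bcl2 (ENSMUSG00000057329, chromosome 1, 106538178 to 106714274) was at 113, 94.5 and 92.7 CPM in Nfkb2-/- libraries, against 39.4, 135 and 147 CPM in wild type. The Nfkb2-/- libraries lay between wild-type replicate 1 and the other 2 wild-type libraries, so the groups overlapped. Nfkb2-/- libraries averaged 100.0 ± 11.2 CPM, against 107 ± 59.1 CPM in wild type (SD, n = 3). The log2 fold change was -0.10 (SE 0.418, 95% interval -1.07 to 0.87, edgeR adjusted p = 0.949). This value rested on wild-type replicate 1. Without it, every Nfkb2-/- library lay below both remaining wild-type libraries and the log2 fold change was -0.50 (SE 0.118, edgeR adjusted p = 0.0198). Without wild-type replicate 3 it was 0.20, and with the replicate number as a block 0.08 (edgeR adjusted p = 0.952). An antisense gene, D630008O14Rik, covers 6.09% of the Bcl2 exon bases and had 51 counts over all libraries, which unstranded counting cannot separate.

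The Bcl2a1 genes encode A1, a pro-survival protein induced by NF-kB and by antigen receptor signals, and lie close together on chromosome 9. Mice carry several near-identical copies, and reads that fall on identical stretches cannot be assigned to one of them. Over 516 coding bases, Bcl2a1a and Bcl2a1b differ at 11, Bcl2a1a and Bcl2a1d at 7, and Bcl2a1b and Bcl2a1d at 6. The first 60 coding bases of each GENCODE M21 transcript are shown because they hold 6 of the 12 positions at which the 3 copies differ, which are in capitals.
Bcl2a1a: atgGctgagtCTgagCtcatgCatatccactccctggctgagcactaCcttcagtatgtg
Bcl2a1b: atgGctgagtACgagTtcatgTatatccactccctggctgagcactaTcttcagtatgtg
Bcl2a1d: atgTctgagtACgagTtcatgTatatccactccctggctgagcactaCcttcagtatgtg
Of all 50-base windows, 31.0% were unique to the gene among GENCODE M21 transcripts for Bcl2a1a, 20.8% for Bcl2a1b and 20.5% for Bcl2a1d. With 100-base windows these shares were 56.5%, 43.2% and 45.3%. Bcl2a1b also shares 49.1% of its exon bases with the overlapping gene Gm29094, which had 0 counts. The split of counts among the copies is therefore uncertain.

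Bcl2a1d (chromosome 9, 88723285 to 88731914) held most of the Bcl2a1 counts, with 27.7, 47.8 and 50.4 CPM in Nfkb2-/- libraries, against 5.82, 39.7 and 30.1 CPM in wild type. Bcl2a1b (chromosome 9, 89199209 to 89207827) had 6.54, 10.6 and 11.3 CPM in Nfkb2-/- libraries, against 1.78, 9.57 and 8.57 CPM in wild type. In both genes wild-type replicate 1 was the lowest library, Nfkb2-/- replicates 2 and 3 were the highest, and the groups overlapped. Log2 fold changes were 0.75 for Bcl2a1d (SE 0.583, edgeR adjusted p = 0.659) and 0.53 for Bcl2a1b (SE 0.547, edgeR adjusted p = 0.752). They were 0.26 and 0.07 without wild-type replicate 1. Bcl2a1a (chromosome 9, 88956900 to 88962419) had 1, 6 and 6 counts in Nfkb2-/- libraries and 4, 8 and 4 counts in wild type.

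Summing Bcl2a1a, Bcl2a1b, Bcl2a1c and Bcl2a1d into 1 feature removes the question of how reads were split among counted copies, though not that of reads left uncounted. The sum was 34.3, 59.1 and 62.2 CPM in Nfkb2-/- libraries, against 7.82, 49.9 and 39.0 CPM in wild type. Bcl2a1d made up 80.7%, 80.9% and 81.0% of the summed counts in Nfkb2-/- libraries, against 74.5%, 79.6% and 77.2% in wild type. The log2 fold change of the sum was 0.69 (SE 0.569, 95% interval -0.62 to 2.01, edgeR adjusted p = 0.677), or 0.97 with the replicate number as a block (edgeR adjusted p = 0.237) and 0.22 without wild-type replicate 1.

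Bcl2 and the Bcl2a1 copies are also expressed by B cells, and Bcl2a1 by myeloid and dendritic cells. All 10 B cell markers were detected, with none at 0 in every library, and they summed to 29.9, 39.4 and 52.4 CPM in Nfkb2-/- libraries, against 80.8, 262 and 187 CPM in wild type. The 5 dendritic cell markers summed to 88.7 to 128 CPM in Nfkb2-/- libraries, against 23.6 to 57.3 CPM in wild type, and this sum was mostly Zbtb46, at 86.8, 102 and 118 CPM in Nfkb2-/- libraries, against 42.1, 24.9 and 16.5 CPM in wild type. The other 4 (Flt3, Itgax, Siglech and Xcr1) overlapped between the genotypes, each with a lower mean in Nfkb2-/- libraries, so the sum does not describe the list as a whole. The 8 neutrophil and monocyte markers summed to 14.3 to 36.1 CPM in Nfkb2-/- and 11.4 to 59.9 CPM in wild type, with Ly6g at 1 count in all Nfkb2-/- libraries together and 3 in all wild-type ones. The 8 markers of resting T cells summed to 4191 to 4938 CPM in Nfkb2-/- and 4803 to 5981 CPM in wild type, and the 8 of effector Tregs to 2162 to 2510 CPM in Nfkb2-/- and 1054 to 1464 CPM in wild type. The 2 markers of CD8 T cells summed to 10.4 to 13.7 CPM in Nfkb2-/- libraries, against 13.3 to 22.7 CPM in wild type. Of the 4 NK cell markers, Eomes averaged 19.3 CPM in Nfkb2-/- libraries, against 6.39 CPM in wild type, and the other 3 were near 0. Ncr1 had 11 counts over all Nfkb2-/- libraries and 5 in wild type, Klrb1c had 25 over all Nfkb2-/- libraries and 26 in wild type, and Klra8 had 0 over all Nfkb2-/- libraries and 5 in wild type. The part of these cell types in the levels of Mcl1, Bcl2l1, Bcl2 and Bcl2a1 was not tested, apart from a fit with the B cell marker sum as a covariate, which leaves 3 residual degrees of freedom. In that fit 2 members were called higher, where 7.89% of all genes were called higher and 18.1% in either direction. The log2 fold changes were 3.71 for Bcl2a1b (edgeR adjusted p = 0.00748), 4.42 for Bcl2a1d (0.00275), 1.91 for Bcl2 (0.161), 0.79 for Bcl2l1 (0.107) and -0.32 for Mcl1 (0.402). The B cell sum itself did not overlap between the genotypes, so this fit extrapolates and cannot cleanly separate it from genotype. Within wild type that sum was lowest in replicate 1, as were Bcl2, Bcl2a1b and Bcl2a1d. No conclusion is drawn from these values.

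Bcl2l2 encodes BCL-W, a pro-survival protein best known for its role in sperm formation. Bcl2l2 (chromosome 14, 54883377 to 54888234) was low, at 9.85, 12.2 and 11.3 CPM in Nfkb2-/- libraries, against 9.98, 9.02 and 7.64 CPM in wild type. Nfkb2-/- replicate 1 lay below wild-type replicate 1, so the groups overlapped. Its log2 fold change was 0.32 (SE 0.195, 95% interval -0.13 to 0.77, edgeR adjusted p = 0.547). Bcl2l2 shares 13.3% of its exon bases with the same-strand gene Gm20521, which had 0 counts.

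Bax and Bak1 encode the pore-forming effectors, and neither passed the test. Bax (chromosome 7, 45461697 to 45466898) was at 35.7, 37.2 and 35.7 CPM in Nfkb2-/- libraries, against 42.1, 32.7 and 32.5 CPM in wild type. The highest library was wild-type replicate 1 and the lowest were the other 2 wild-type libraries. Its log2 fold change was 0.02 (SE 0.148, 95% interval -0.33 to 0.36, edgeR adjusted p = 0.979). Bax shares 12.2% of its exon bases with the same-strand gene Gm45808, which had 0 counts. Bak1 (chromosome 17, 27019810 to 27029009) was at 23.7, 26.2 and 25.7 CPM in Nfkb2-/- libraries, against 20.7, 21.05 and 24.3 CPM in wild type, with wild-type replicate 3 above Nfkb2-/- replicate 1. Its log2 fold change was 0.20 (SE 0.143, 95% interval -0.13 to 0.53, edgeR adjusted p = 0.633). Bak1 shares 18.2% of its exon bases with the opposite-strand gene Ggnbp1, which had 58 counts. Bok, a BAX-like gene outside the usual effector pair, had 0, 1 and 0 counts in Nfkb2-/- libraries and 3, 1 and 0 counts in wild type, so no difference was detectable at this depth.

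Levels of different genes were compared as CPM per kilobase of merged exons. Bcl2a1 levels may be too low, since reads on stretches shared by the copies may be uncounted while the full length was used. Bax and Bcl2l2 levels may be too low in the same way, on exon bases shared with Gm45808 and Gm20521. This limit also holds for the ranks, shares and sums below. Mcl1 averaged 111 ± 3.26 CPM per kilobase in Nfkb2-/- libraries, against 147 ± 5.05 in wild type (SD, n = 3 for these and the next values). Bcl2a1d averaged 48.6 ± 14.4 in Nfkb2-/- libraries, against 29.2 ± 20.2 in wild type. Bcl2l1 averaged 28.6 ± 5.22 in Nfkb2-/- libraries, against 17.4 ± 1.31 in wild type. These were the 3 highest means in Nfkb2-/- libraries. Bax averaged 22.9 ± 0.55 in Nfkb2-/- libraries, against 22.7 ± 3.47 in wild type. Bcl2 averaged 10.9 ± 1.22 in Nfkb2-/- libraries, against 11.7 ± 6.45 in wild type, and Bcl2a1b averaged 11.6 ± 3.16 in Nfkb2-/- libraries, against 8.13 ± 5.19 in wild type. Bak1 averaged 10.5 ± 0.53 in Nfkb2-/- libraries, against 9.14 ± 0.82 in wild type, and Bcl2l2 averaged 2.50 ± 0.27 in Nfkb2-/- libraries, against 1.99 ± 0.26 in wild type. Mcl1 was above every other member in all 6 libraries, and Bcl2l2 was the lowest of the 8 in each library except wild-type replicate 1, where Bcl2a1b was at 2.18 and Bcl2l2 at 2.24 CPM per kilobase. With merged exons as the length, Bcl2l1 was above Bax in each of the 3 Nfkb2-/- libraries and below it in each of the 3 wild-type libraries. This order by genotype depended on the length used. With the longest transcript, Bcl2l1 was above Bax in wild-type replicate 2 as well. Bcl2, Bcl2a1b and Bak1 overlapped with each other within both genotypes. With the longest transcript as the length, Bcl2l1 averaged 41.1 over the 6 libraries, against 23.0 with merged exons, and Bax averaged 32.7, against 22.8, so their places next to Bcl2a1d (38.9) depend on the length used.

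**Figure D2:**
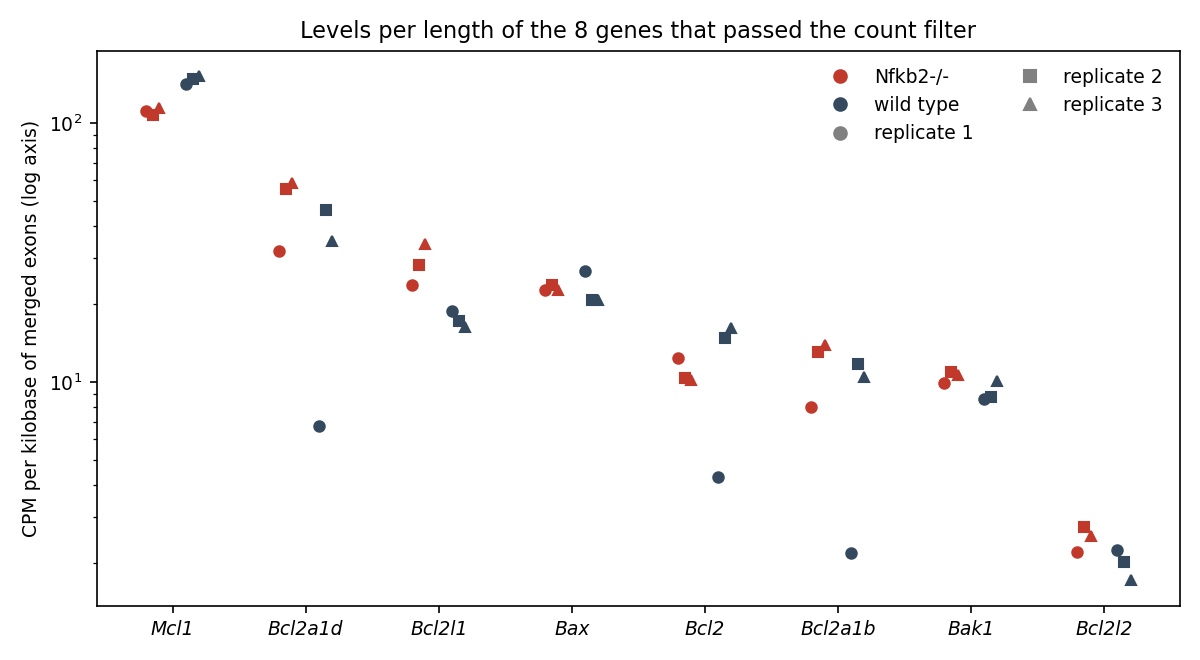
CPM per kilobase of merged exons (log axis) of the 8 genes that passed the count filter, ordered by their mean over 6 libraries, with Nfkb2-/- in red left of wild type in dark blue; each point is a library and its shape the replicate number. As counted, Mcl1 is highest in every library, and the points of Bcl2a1d reach from 6.75 to 58.4.

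Mcl1 made up a smaller share of the summed pro-survival level (CPM per kilobase) in the Nfkb2-/- libraries, and Bcl2l1 a larger one. Mcl1 was 58.7%, 49.3% and 48.7% of the sum in Nfkb2-/- libraries, against 80.4%, 61.5% and 65.5% in wild type. Bcl2l1 was 12.4%, 13.0% and 14.6% in Nfkb2-/- libraries, against 10.7%, 7.13% and 7.03% in wild type. Neither share overlapped between the genotypes, though Nfkb2-/- replicate 1 and wild-type replicate 2 were close for Mcl1. The Bcl2a1 copies were 21.2%, 31.7% and 31.3% in Nfkb2-/- libraries, against 5.22%, 24.4% and 19.8% in wild type, and these overlapped. Any Bcl2a1 reads left uncounted would make the Bcl2a1 share too low and the other shares too high.

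Within a library, the log2 ratio of Bcl2l1 to Mcl1 (CPM per kilobase) was -2.24, -1.93 and -1.74 in Nfkb2-/- libraries, against -2.91, -3.11 and -3.22 in wild type. The mean ratio was higher in Nfkb2-/- libraries by 1.11 on the log2 scale. As given above, Bcl2l1 was higher and Mcl1 lower without overlap between the genotypes. This ratio therefore had to separate them and is no further result. The log2 ratio of Bcl2 to Mcl1 was -3.17, -3.38 and -3.49 in Nfkb2-/- libraries, against -5.04, -3.33 and -3.24 in wild type, and overlapped. The summed pro-survival level was 213 ± 22.1 CPM per kilobase in Nfkb2-/- libraries, against 216 ± 34.7 in wild type, and that of Bax, Bak1 and Bok was 33.4 ± 1.01 in Nfkb2-/- libraries, against 31.9 ± 3.10 in wild type (SD, n = 3). The log2 ratio of these sums was 2.67 ± 0.133 in Nfkb2-/- and 2.75 ± 0.381 in wild type, a difference smaller than either SD. These ratios are descriptions, given without a test because the genes were chosen with earlier results of these data known.

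**Figure D3:**
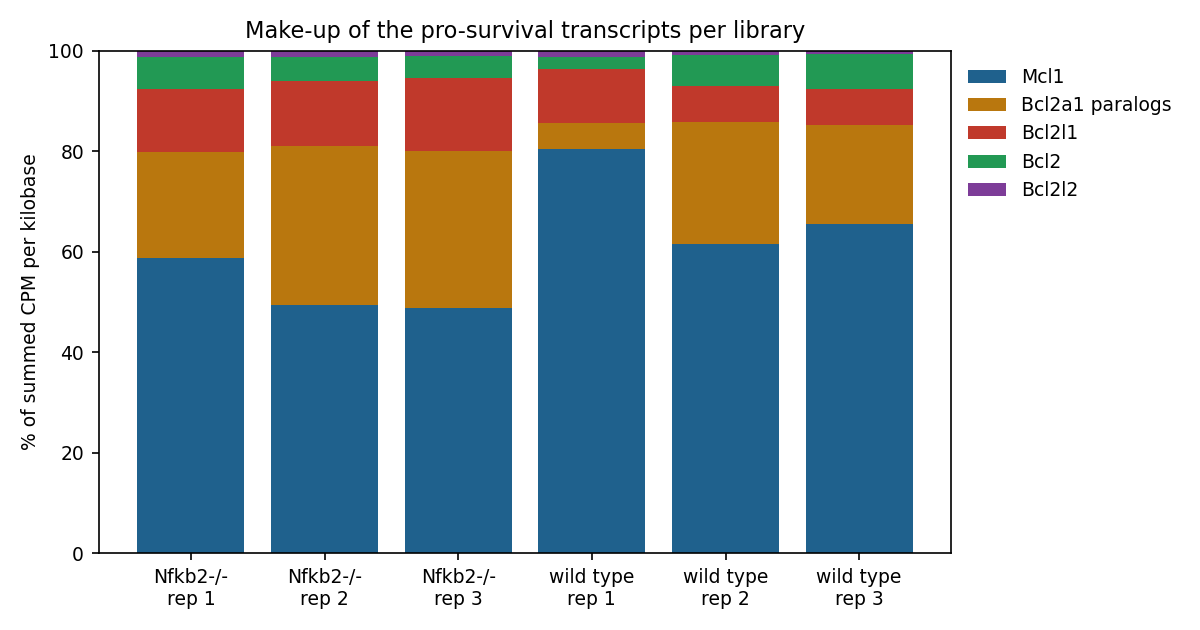
Share of the summed pro-survival level (CPM per kilobase of merged exons, y axis in percent) held by Mcl1, the 3 Bcl2a1 copies, Bcl2l1, Bcl2 and Bcl2l2 in each library, Nfkb2-/- left of wild type. As counted, Mcl1 runs from 48.7% to 58.7% in Nfkb2-/- and from 61.5% to 80.4% in wild type. Bcl2a1 reads left uncounted would make these shares too high.

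The genes whose log2 CPM varied most like each main pro-survival gene over the 6 libraries were found by the smallest root mean square difference after centring, among 7922 protein-coding genes averaging 10 CPM or more. For Mcl1 these were Pip4p1 (0.0347 on the log2 scale), Plcl2 (0.0374) and Rxrb (0.0425), with log2 fold changes of -0.39, -0.39 and -0.39. For Bcl2l1 they included Kif23 (0.0479) and Lancl2 (0.108), with log2 fold changes of 0.63 and 0.65. For Bcl2 they were Focad (0.103), Ksr2 (0.146) and Acap1 (0.146), which like Bcl2 had their lowest level in wild-type replicate 1. None of these named genes passed the edgeR test (adjusted p from 0.132 to 0.998), and all share the 6 libraries and their depth with the genes they resemble.

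Among the BH3-only genes, whose proteins activate BAX and BAK or neutralise the pro-survival proteins, 2 of 6 tested fell and 0 rose (edgeR adjusted p under 0.05), where 0.405% of all genes were lower and 1.01% higher. The median log2 fold change of the 6 was -0.39, against -0.03 over all genes tested, and Bik and Hrk did not pass the count filter. The list was not uniform: 3 of the 6 were lower without overlap between genotypes, and 1 was higher without overlap. Over all genes these shares were 9.9% and 10.7%. That 1 gene was the only one of the 6 with a positive log2 fold change. Bbc3, the gene of PUMA, was at 20.1, 16.7 and 19.2 CPM in Nfkb2-/- libraries, against 44.4, 32.0 and 34.8 CPM in wild type (log2 fold change -0.99, SE 0.173, edgeR adjusted p = 0.0396). Bcl2l11, the gene of BIM, was at 163, 138 and 142 CPM in Nfkb2-/- libraries, against 287, 218 and 252 CPM in wild type (log2 fold change -0.78, SE 0.143, edgeR adjusted p = 0.0483). In both genes the genotypes did not overlap, as for 9.9% of all genes on the lower side. Neither call held without any 1 of the Nfkb2-/- libraries or without wild-type replicate 2 or 3: the edgeR adjusted p then ran from 0.0708 to 0.245 for Bbc3 and from 0.0722 to 0.288 for Bcl2l11. Nfkb2 itself was not called in these fits either (edgeR adjusted p from 0.0567 to 0.176). Over all genes they called 6 to 56 higher and 1 to 10 lower, against 135 and 54 with all libraries. The fold changes stayed near their size in these fits, at -1.09 to -0.91 for Bbc3 and -0.87 to -0.73 for Bcl2l11 on the log2 scale. With the Y-linked sum as a covariate the log2 fold change was -1.07 for Bbc3 (SE 0.322, edgeR adjusted p = 0.576) and -0.95 for Bcl2l11 (SE 0.254, edgeR adjusted p = 0.506). The Y-linked sum did not overlap between the genotypes, so this fit extrapolates and cannot cleanly separate it from genotype. In all it called 6 genes higher and 1 lower, and Nfkb2 itself was not called (edgeR adjusted p = 0.563).

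The other lists of the pathway gave 0 called genes by edgeR. Of 11 apoptosome and caspase genes tested, which act after cytochrome c release, 0 were called and the median log2 fold change was 0.02. At an unadjusted p under 0.05, 2 were higher and 0 lower, where 7.25% of all genes were higher and 6.35% lower. Apaf1, the scaffold of the apoptosome, was at 97.6, 127 and 117 CPM in Nfkb2-/- libraries, against 77.6, 67.6 and 48.5 CPM in wild type (log2 fold change 0.82, SE 0.192, edgeR adjusted p = 0.0990). Its levels did not overlap between the genotypes, as for 10.7% of all genes on the higher side. DESeq2 called it higher, as it did 3.21% of all genes.

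Of 10 genes of interleukin-2 and related survival signalling, 0 were called (median log2 fold change 0.16), with 4 higher and 1 lower at an unadjusted p under 0.05, against 7.25% and 6.35% of all genes. Il2rg, the common cytokine receptor chain, was at 344, 306 and 355 CPM in Nfkb2-/- libraries, against 169, 208 and 258 CPM in wild type (log2 fold change 0.66, edgeR adjusted p = 0.125). Stat5a, a transcription factor activated by interleukin-2, was at 1016, 1225 and 1280.3 CPM in Nfkb2-/- libraries, against 811, 808 and 777 CPM in wild type (log2 fold change 0.56, edgeR adjusted p = 0.144). Neither gene overlapped between the genotypes, as for 10.7% of all genes on the higher side, and DESeq2 called both higher, as it did 3.21% of all genes.

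Of 5 tested genes of MCL-1 protein turnover 0 were called (median -0.06), with Btrc, a ubiquitin ligase subunit, at a log2 fold change of -0.99 (edgeR adjusted p = 0.112) and Usp9x, a deubiquitinase of MCL-1, at 0.29 (0.17 without wild-type replicate 3). Btrc did not overlap between the genotypes, as for 9.9% of all genes on the lower side. DESeq2 called it lower (adjusted p = 0.00935), as it did 1.89% of all genes. So did edgeR without a count filter (adjusted p = 0.00853), where 174 of the 27114 genes tested in that fit were lower. EdgeR without wild-type replicate 1 also called it lower (adjusted p = 0.0128, log2 fold change -0.67), where 4.44% of all genes were. Of 5 outer membrane partners of BAX and BAK 0 were called (median -0.02), with Vdac1, a channel protein, at 0.20 (0.095 without wild-type replicate 1) and Mtch2, a receptor of BID, at -0.10 (-0.045 without Nfkb2-/- replicate 1 and -0.17 without Nfkb2-/- replicate 2). Of 6 tested further BCL-2-like genes 0 were called (median 0.20), with Bcl2l14, whose log2 fold change was 1.11, at 2.30 ± 0.724 CPM in Nfkb2-/- libraries, against 1.08 ± 0.529 CPM in wild type (SD, n = 3), and Bcl2l12 at a log2 fold change of -0.73, or -0.24 without wild-type replicate 1. At an unadjusted p under 0.05, Bcl2l14 was higher in the last list and Btrc lower in the first. By that measure 7.25% of all genes were higher and 6.35% lower.

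**Figure D4:**
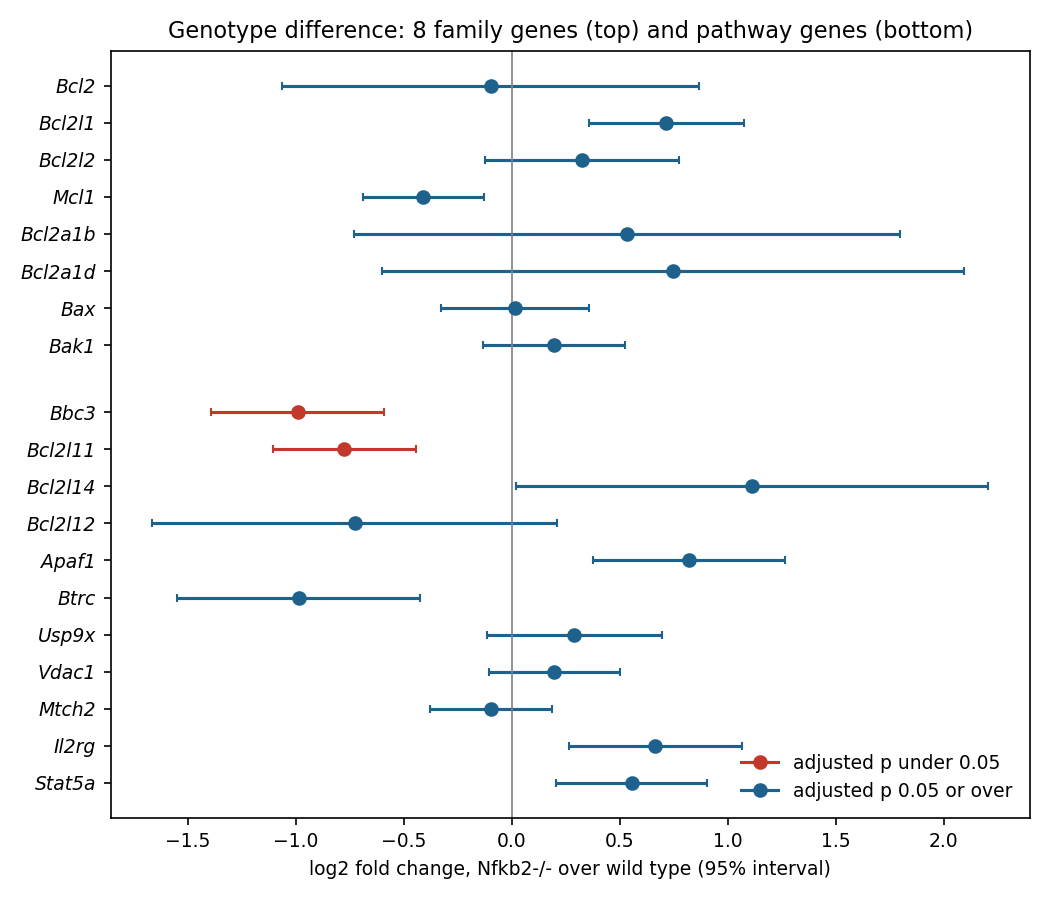
Log2 fold change of Nfkb2-/- over wild type (x axis) with its 95% interval from the edgeR fit, for the 8 tested family genes above and the genes named from the other lists below; red marks an adjusted p under 0.05. The intervals of Bcl2l1 and Mcl1 leave out 0 on opposite sides, and only Bbc3 and Bcl2l11 among the genes plotted pass the threshold after adjustment.

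Leaving out each library in turn kept the signs of Bcl2l1, Bcl2l2, Mcl1, Bcl2a1b, Bcl2a1d and Bak1, and changed those of Bcl2 and Bax. Without wild-type replicate 1, 3 of the 8 tested members were called, with Bcl2l1 higher and Mcl1 and Bcl2 lower, where 4.6% of all genes were called higher and 4.44% lower, 9.04% together. Without any other library 0 were called by the same edgeR test. With the Y-linked sum as a covariate the log2 fold change was 1.10 for Bcl2l1 (edgeR adjusted p = 0.315) and -0.40 for Mcl1 (edgeR adjusted p = 0.828). That sum did not overlap between the genotypes, so this fit cannot cleanly separate it from genotype.

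**Figure D5:**
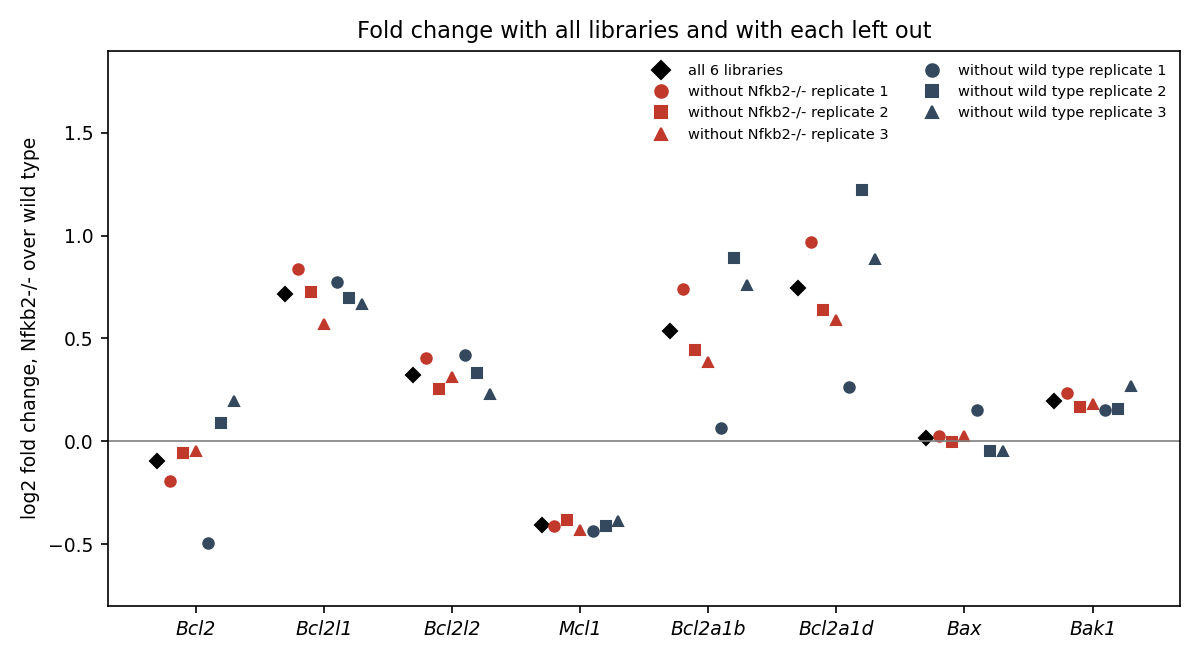
Log2 fold change of Nfkb2-/- over wild type (y axis) of the 8 tested genes with all 6 libraries (black diamond) and with each library left out (red for an Nfkb2-/- library, dark blue for a wild-type library, shape for the replicate number). Mcl1 stays between -0.44 and -0.39, while Bcl2 runs from -0.50 without wild-type replicate 1 to 0.20 without wild-type replicate 3.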

How the data were processed

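The deposited values are whole-number read counts per Ensembl gene, 1 file per library, not normalized. Library preparation did not keep strand, per the labels' protocols. GRCm38, HISAT2, HTSeq, FastQC and DESeq2 are named in the submitters' processing notes; versions and counting mode are not given in the sources used here. Of 55573 identifiers, 55480 matched GENCODE M21 (GRCm38), which gave symbols, positions and exon lengths; promoter windows are from RefSeq (GRCm38.p6), and all 10 members matched.

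The count test was edgeR 4.0.16, run under R 4.3.3 (filterByExpr, TMM scaling, a robust quasi-likelihood model of genotype alone, Benjamini-Hochberg adjustment over 13347 genes, threshold 0.05; common biological coefficient of variation 0.228). CPM uses TMM-scaled library sizes. Alternatives used DESeq2 1.42.0 and limma 3.58.1. Paralog alignments used Biopython 1.88, and figures matplotlib 3.10.9 in Python 3.11.15. Intervals are from the fit's standard error.

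The members and lists were chosen with earlier results of these data known. Besides the 10 members, the genes named are up to 2 with the smallest p from each of 6 pathway lists, and Nfkb2. The 3 nearest patterns of Bcl2, Mcl1 and Bcl2l1 are also taken. Markers are named where they check a cell type, and D630008O14Rik, Gm29094, Ggnbp1, Gm45808 and Gm20521 as overlapping genes. Some genes that this rule takes are not reported here.

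Each of the 15 pairs of libraries differed by more than sampling noise (chi-square over its degrees of freedom 5.82 to 106). Libraries with the same number deviated together from their group means (r = 0.364, 0.267 and 0.111, all above 0.1). A fit with the number as a block was therefore run beside the main model of genotype alone. With 3 libraries per genotype, these correlations cannot show that the numbers pair the libraries. The third Nfkb2-/- library was closer to wild-type replicate 2 (r = 0.251) than to its own number, and the labels do not say what a number marks. Counts were simulated for this comparison over 13145 tested genes, with the same dispersion for every gene and no outlying library. The test called 1 of 50 genes with a 1.5-fold change and 21 of 50 with a 2-fold change. It called all 50 with a 4-fold change and all 50 with an 8-fold change, and made 7 false calls. The real libraries differ in both respects, so these rates do not give the power for any single gene here.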

Additional observations from a re-analysis of the deposited data

How the results depend on the processing

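Upper-quartile and RLE scaling, a filter of 1 CPM in 3 libraries, limma-voom and summed Bcl2a1 copies left 0 members called. With the replicate number as a block the log2 fold change of Bcl2 was 0.081, 0 members were called, 1 gene of the other lists was higher, and 93 of all genes were lower against 54; the block changed no other call of a member or list. With no count filter 1 member was higher, 2 genes of the other lists were higher, and 292 of all genes were higher and 174 lower, against 135 and 54. That fit tested 27114 genes, against 13347 in the main test. The share called higher was 1.08%, against 1.01%. DESeq2 called 1 member higher and 1 lower, 4 genes of the other lists higher, and 428 genes higher and 252 lower. The Y-linked covariate left 0 genes of the other lists lower and 6 genes higher and 1 lower in all. With the B cell marker covariate 2 members were higher, 4 genes of the other lists were higher and 5 lower, and 1053 genes were higher and 1362 lower. With each library left out, members called ran from 0 to 1 higher and 0 to 2 lower, genes of the other lists from 0 to 4 higher and 0 to 4 lower, and all genes from 6 to 628 higher and 1 to 606 lower. Only wild-type replicate 1 brought in member calls when left out.

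Against -0.10 in the main test, the log2 fold change of Bcl2 was 0.12 in limma-voom, 0.081 with the replicate block and 1.91 with the B cell covariate, and it ran from -0.50 to 0.20 with each library left out (above 0 without wild-type replicates 2 and 3). Against 0.02, that of Bax was -0.39 with the B cell covariate and ran from -0.049 to 0.15 with each library left out (below 0 without Nfkb2-/- replicate 2 and wild-type replicates 2 and 3). The cause was not tested. With the longest transcript as the length, mean levels were 41.1 for Bcl2l1, 2.62 for Bcl2l2 and 32.7 for Bax, since the length itself is shorter. Bcl2a1a and Bok, at under 10 counts in every library, limit any comparison to counts.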
